A study of Mus musculus with 6 samples.

Results

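The genes examined were 10 AP-1 and immediate-early genes, *Fos*, *Fosb*, *Fosl2*, *Jun*, *Junb*, *Jund*, *Atf3*, *Ier2*, *Ier3* and *Ier5*, taken by name from a table of 12153 genes in which all 10 had a value in every library. Expression was measured by RNA-Seq in Tregs sorted from B16.F10 melanoma, a mouse tumor line, taken on day 15 after implantation, with 3 libraries for each genotype, control and Nr3c1 Foxp3-Cre. The control genotype was given as Nr3c1-flox. The Nr3c1 Foxp3-Cre genotype was given as Nr3c1-flox_Foxp3-YFP/Cre, so both groups carried the floxed gene of the glucocorticoid receptor (GR), and the Foxp3 promoter drove the YFP/Cre that deletes it in Tregs. The labels described a sort on CD45, CD4 and CD25 and the study's methods a sort on Foxp3-YFP, an allele that the control labels do not name, and a difference in sorting cannot be told apart from the genotype.

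AP-1 is a dimer of bZIP proteins, in which a basic region contacts DNA and a leucine zipper joins the partners. Fos proteins form stable dimers with Jun proteins rather than with themselves, whereas Jun proteins can also pair with each other and with ATF factors. Immediate-early genes are transcribed within minutes of a stimulus such as TCR engagement, without new protein synthesis, and MAP kinases raise both the transcription and the activity of Fos and Jun. GR is known to tether to AP-1 and repress it, and to induce *Tsc22d3* and *Dusp1*, whose products restrain AP-1 and MAP kinases. Tissue digestion and sorting are themselves known to induce these genes.

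The deposited values were log2 CPM that the authors had quantile normalized, so library depth is unknown, and the number of libraries limits the precision. Genotypes were compared with limma's moderated test over all genes, with Benjamini-Hochberg adjustment. Differences are given as log2 fold change of Nr3c1 Foxp3-Cre over control with a 95% interval. The targeted gene *Nr3c1* was at 7.15, 7.59 and 6.88 log2 CPM in control libraries 1 to 3 and at 6.14, 5.45 and 5.90 in Nr3c1 Foxp3-Cre libraries 1 to 3, without overlap. All 11 Treg and CD4 T cell markers listed were measured, with a summed level of 6704 to 8846 CPM in control and 6859 to 7549 CPM in Nr3c1 Foxp3-Cre libraries. Melanoma markers summed to between 4584 and 12542 CPM over the 6 libraries. Nothing in the labels says whether libraries came from separate mice, so p-values measure the spread between these libraries only.

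Promoter windows from RefSeq on GRCm38.p6, from 250 bases before to 50 after the annotated start, were matched for 9 of the 10 genes. *Ier2* had no entry. The letters TGACG, the core of the cAMP response element to which CREB and ATF factors bind, occurred on either strand in 4 of the 9 windows, *Fos*, *Fosb*, *Junb* and *Atf3*, against 20.8% of the 32851 windows of all genes. TATAAA was searched on the gene's strand and lay in the windows of *Fos* and *Junb*, against 8.32% of all. In none of the 9 were the full element TGACGTCA (1.79% of all windows, and every one also a match to TGACG) or the AP-1 site TGANTCA (7.81%), both searched on both strands. The 140 bases before the start are shown for the 4 genes with TGACG, to show where this element lies in the *Fos* promoter and its counterparts, with TGACG, its reverse complement and TATAAA in capitals. The windows lie at chr12:85473750-85473889 on the + strand for *Fos*, and on the − strand at chr7:19310046-19310185 for *Fosb*, chr8:84978749-84978888 for *Junb* and chr1:191183334-191183473 for *Atf3*.
Fos: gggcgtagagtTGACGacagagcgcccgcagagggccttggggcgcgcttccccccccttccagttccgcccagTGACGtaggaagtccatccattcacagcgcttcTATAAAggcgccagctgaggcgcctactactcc
Fosb: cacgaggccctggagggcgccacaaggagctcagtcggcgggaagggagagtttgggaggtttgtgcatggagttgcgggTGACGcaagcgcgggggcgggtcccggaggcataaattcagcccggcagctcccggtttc
Junb: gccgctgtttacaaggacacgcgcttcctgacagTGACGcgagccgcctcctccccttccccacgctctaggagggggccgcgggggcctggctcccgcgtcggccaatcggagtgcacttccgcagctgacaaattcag
Atf3: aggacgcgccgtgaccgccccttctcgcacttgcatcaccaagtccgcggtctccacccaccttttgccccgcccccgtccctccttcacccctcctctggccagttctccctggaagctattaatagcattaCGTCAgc
In *Fos* the motif began 129 and 66 bases before the start and TATAAA 33 bases before it. TGACG began 60 bases before the start in *Fosb* and 106 in *Junb*, and in *Atf3* it lay on the opposite strand from 7 bases before the start. In *Junb*, TATAAA began at the annotated start and so lies outside the bases shown. These matches are descriptions of the letters and not binding sites. Counted downstream from the RefSeq start, the GENCODE gene start lay at 30 bases for *Junb*, 1210 for *Jund*, -671 for *Fosl2* and -34706 for *Atf3*, so the windows of these genes are not those of the GENCODE gene starts.

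Expression differed over a wide range between the members. In control Tregs, *Junb* had the highest level per length, 9.59 ± 0.30 log2 CPM per kilobase of exon (SD, n = 3), above 99.7% of all genes. *Jund*, at 8.39 ± 0.13, and *Fos*, at 8.27 ± 0.056 (SD, n = 3 each), followed, and their values overlapped. *Ier2* was at 7.27 ± 0.10 and *Jun* at 5.9995 ± 0.20 log2 CPM per kilobase (SD, n = 3 each). Next came *Ier5* at 4.997 ± 0.28, then *Ier3* at 4.14 ± 0.40 and *Atf3* at 3.89 ± 0.17 log2 CPM per kilobase (SD, n = 3 each), the last pair with overlapping values. *Fosl2* at 1.52 ± 0.59 and *Fosb* at 0.18 ± 0.49 log2 CPM per kilobase (SD, n = 3 each) were the lowest, and *Fosb* stood above only 16.5% of all genes. In Nr3c1 Foxp3-Cre Tregs the order was the same apart from *Ier3* and *Atf3*, which changed places and overlapped there too. *Jund* and *Fos* were barely apart there, with the lowest *Jund* value at 8.404 and the highest *Fos* value at 8.401. The most abundant Jun family transcript was thus *Junb* and the most abundant Fos family transcript *Fos* in both genotypes.

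**Figure D1:**
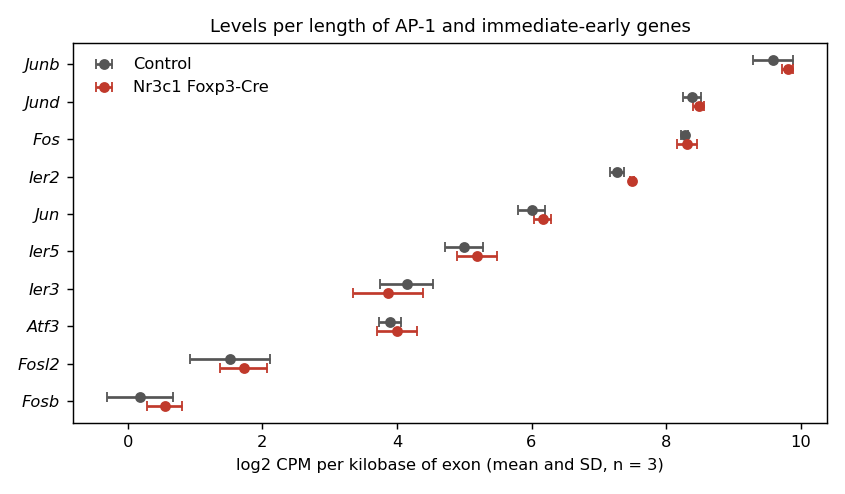
Mean level per length of each gene on a log2 scale (log2 CPM per kilobase of exon) in control (grey) and Nr3c1 Foxp3-Cre (red) Tregs, with bars for the SD of 3 libraries. The genes run from Junb at 9.59 to Fosb at 0.18 in control Tregs, and the genotypes lie close together at each gene.

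None of the 3 Fos family genes differed between genotypes beyond the spread of the libraries. *Fos* (ENSMUSG00000021250.13, mm10 chromosome 12, 85473890 to 85477273), the first partner of Jun in AP-1, was at 9.55, 9.53 and 9.44 log2 CPM in control libraries 1 to 3 and at 9.64, 9.62 and 9.38 in Nr3c1 Foxp3-Cre libraries 1 to 3. Nr3c1 Foxp3-Cre replicate 3 was the lowest of all 6 and the other two the highest, so the groups overlapped. Its log2 fold change was 0.037 (standard error 0.10, interval -0.20 to 0.27, limma adjusted p = 1.0), an interval that on the linear scale runs from 0.871-fold to 1.21-fold.

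*Fosb* (ENSMUSG00000003545.3, chromosome 7, 19302696 to 19310051) encodes a Fos protein that also has a truncated form, and the values are sums over its transcripts. It was at 2.78, 3.34 and 2.36 log2 CPM in control and at 3.47, 2.96 and 3.14 in Nr3c1 Foxp3-Cre libraries. Each Nr3c1 Foxp3-Cre library exceeded the control mean, but control replicate 2 was above 2 of them. The log2 fold change was 0.37 (standard error 0.30, interval -0.30 to 1.03, adjusted p = 1.0), the highest among the members and the widest interval, at 7.09 CPM in control Tregs. *Fosl2* (ENSMUSG00000029135.10, chromosome 5, 32135801 to 32157842), whose product Fra-2 lacks the strong activation domain of Fos, was at 4.72, 5.42 and 4.24 log2 CPM in control and at 5.39, 4.90 and 4.71 in Nr3c1 Foxp3-Cre libraries. Control replicates held both the highest and the lowest value, and the log2 fold change of 0.20 (standard error 0.29, interval -0.45 to 0.86) was smaller than the SD of 0.59 between control libraries.

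The 3 Jun family genes were each slightly higher on average in Nr3c1 Foxp3-Cre Tregs, and all overlapped between groups. *Jun* (ENSMUSG00000052684.4, chromosome 4, 95049034 to 95052222), the partner that JNK activates, was at 7.51, 7.90 and 7.61 log2 CPM in control and at 7.91, 7.91 and 7.70 in Nr3c1 Foxp3-Cre libraries. Only control replicate 2 reached the Nr3c1 Foxp3-Cre values. Its log2 fold change was 0.17 (standard error 0.12, interval -0.11 to 0.44, adjusted p = 1.0). *Junb* (ENSMUSG00000052837.6, chromosome 8, 84974484 to 84978718), which is required in Tregs of several tissues as a partner of BATF, was at 10.46, 11.06 and 10.85 log2 CPM in control and at 11.10, 10.95 and 10.98 in Nr3c1 Foxp3-Cre libraries.

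Control replicate 1 alone was far lower than the other libraries for *Junb*, and the SD was 0.30 in control and 0.079 in Nr3c1 Foxp3-Cre libraries. The log2 fold change was 0.22 (standard error 0.15, interval -0.12 to 0.57, adjusted p = 1.0). *Jund* (ENSMUSG00000071076.6, chromosome 8, 70698949 to 70700616), the Jun gene that is expressed most constantly across cell states, was at 8.97, 9.17 and 9.23 log2 CPM in control and at 9.22, 9.14 and 9.29 in Nr3c1 Foxp3-Cre libraries, a log2 fold change of 0.094 (standard error 0.10, interval -0.14 to 0.33). *Junb* overlaps *Prdx2* on the opposite strand, and *Jun* and *Jund* each overlap an annotated antisense gene. The count method was not stated to use strand, so reads in the shared part cannot be assigned with certainty. *Prdx2* had a log2 fold change of -0.029 (interval -0.24 to 0.18).

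**Figure D2:**
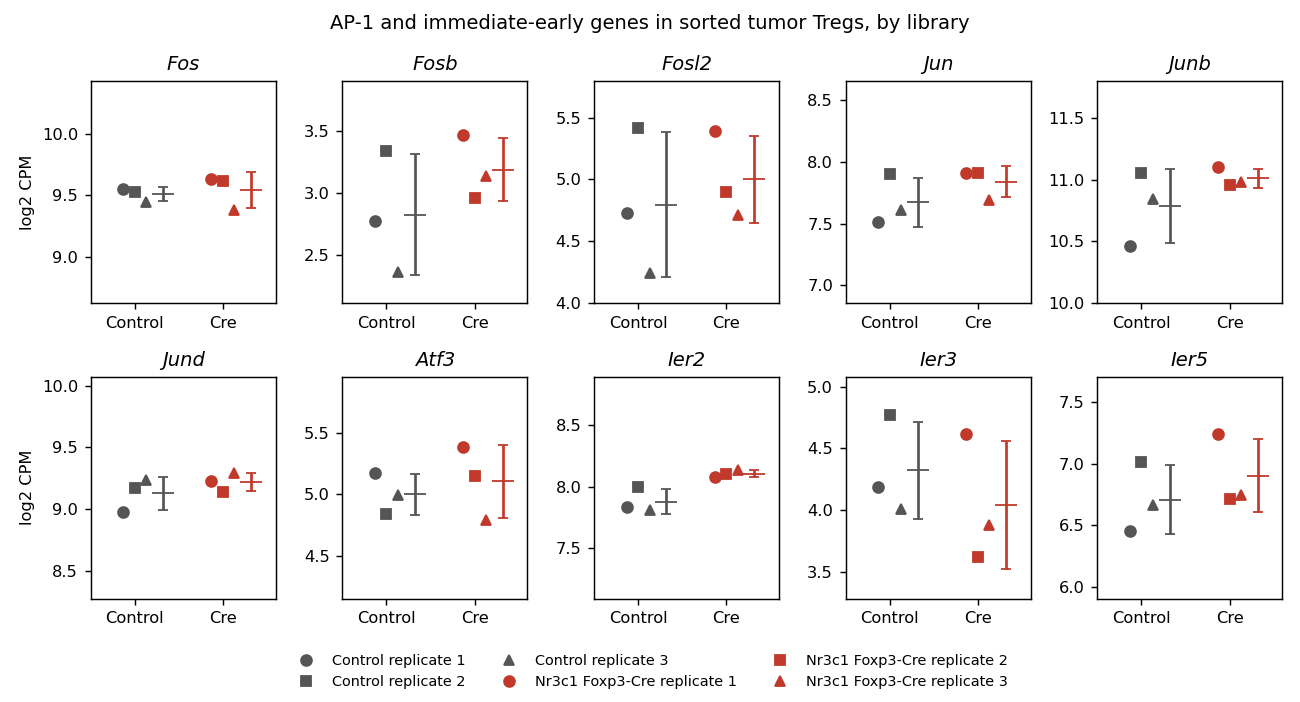
Log2 CPM of each of the 10 genes in the 3 control (grey) and 3 Nr3c1 Foxp3-Cre (red) libraries, where the marker shape gives the replicate number and the bar the mean and SD; each panel spans 1.8 log2 units around its own mean. Ier2 is the gene whose groups do not overlap, and control replicate 2 and Nr3c1 Foxp3-Cre replicate 1 stand high in many panels.

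*Ier2*, an immediate-early gene that encodes a nuclear regulator of transcription, was the member whose groups separated. *Ier2* (ENSMUSG00000053560.4, chromosome 8, 84661331 to 84662852) was at 7.83, 7.996 and 7.81 log2 CPM in control and at 8.07, 8.10 and 8.13 in Nr3c1 Foxp3-Cre libraries. Every Nr3c1 Foxp3-Cre library lay above every control library, by at least 0.078. Its log2 fold change was 0.22 (standard error 0.092, interval 0.017 to 0.43), or 1.17-fold, at an unadjusted p of 0.0370 by limma and an adjusted p of 1.0. An exact two-sided permutation test gave p = 0.1, the smallest that 3 libraries against 3 allow. Among all genes, 7.41% had groups without overlap and 3.69% were without overlap and higher in Nr3c1 Foxp3-Cre Tregs, so 1 of 10 members is close to the background.

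*Atf3* (ENSMUSG00000026628.13, chromosome 1, 191170296 to 191218039), a stress-induced bZIP factor that often represses, was at 5.17, 4.84 and 4.99 log2 CPM in control and at 5.38, 5.14 and 4.79 in Nr3c1 Foxp3-Cre libraries. The Nr3c1 Foxp3-Cre libraries held both extremes, and the log2 fold change was 0.11 (standard error 0.18, interval -0.29 to 0.51). *Ier5* (ENSMUSG00000056708.5, chromosome 1, 155096361 to 155099636), which encodes a partner of the heat-shock factor HSF1, was at 6.45, 7.01 and 6.67 log2 CPM in control and at 7.24, 6.72 and 6.74 in Nr3c1 Foxp3-Cre libraries. Its log2 fold change of 0.19 (standard error 0.18, interval -0.21 to 0.59) was below the SD of 0.28 in control and 0.30 in Nr3c1 Foxp3-Cre libraries.

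*Ier3* (ENSMUSG00000003541.6, chromosome 17, 35821684 to 35822923), a survival factor induced by NF-κB and ERK, was the member with a negative difference. It was at 4.19, 4.77 and 4.01 log2 CPM in control and at 4.62, 3.62 and 3.88 in Nr3c1 Foxp3-Cre libraries. Nr3c1 Foxp3-Cre replicates 2 and 3 were the lowest of the 6, whereas replicate 1 was second only to control replicate 2. The log2 fold change was -0.28 (standard error 0.29, interval -0.94 to 0.37, adjusted p = 1.0).

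Read together, 9 of the 10 genes had a log2 fold change above 0, against 49.5% of all genes. Their median was 0.18, beside -0.0014 over all genes, and the values ran from -0.28 to 0.37. The median was 0.056 without Nr3c1 Foxp3-Cre replicate 1, where 7 of 10 genes were above 0, 0.075 without control replicate 1 and 0.28 without control replicate 2. At an adjusted p under 0.05 by limma, 0 members were called, against 0.0576% of all genes, and at an unadjusted p under 0.05 the count was 1, *Ier2*, against 3.26%. The upper bound of the interval was 1.21-fold for *Fos*, 1.36-fold for *Jun*, 1.25-fold for *Jund* and 1.35-fold for *Ier2*, while for *Fosb* and *Fosl2* it reached 2.05-fold and 1.81-fold. The median changed sign with macrophage markers as a covariate, to -0.024.

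**Figure D3:**
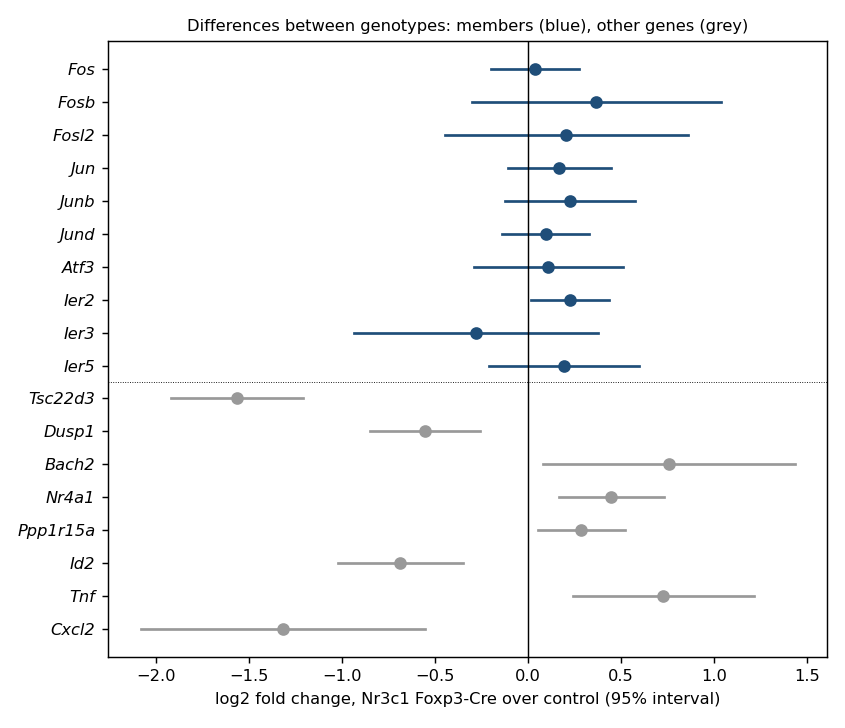
Log2 fold change of Nr3c1 Foxp3-Cre over control with the 95% interval from limma for the 10 members (blue, above the dotted line) and 8 other genes named in the text (grey). The interval lies above 0 for Ier2 only among the members. The grey genes met the p-value rule for naming genes, so their intervals leave out 0 by that choice. Those of Tsc22d3, Dusp1, Id2 and Cxcl2 lie wholly below 0, and those of Bach2, Nr4a1, Ppp1r15a and Tnf wholly above.

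The members also varied from library to library within each genotype. Summed over the 10 genes, the level was 3249, 4174 and 3734 CPM in control libraries 1 to 3 and 4372, 4042 and 3982 CPM in Nr3c1 Foxp3-Cre libraries 1 to 3, and the groups overlapped. Control replicate 2 had the highest control value for 7 of the 10 genes and Nr3c1 Foxp3-Cre replicate 1 the highest value of its group for 8, 6 of which were the highest of all 6 libraries. Of the 45 pairs of members, 36 had a positive correlation of their deviations from the group means, with a median r of 0.48 over the 6 libraries. *Fosb* and *Fosl2* were the closest pair (r = 0.95), followed by *Ier3* and *Ier5* (r = 0.91) and *Fosb* and *Ier3* (r = 0.89). *Fos* and *Jund* went the opposite way (r = -0.63). These correlations describe 6 libraries that share one normalization. *Ier2* had the smallest spread of the members, with a pooled SD of 0.075, and *Fosl2* the largest, at 0.48, against a median of 0.22 over all genes.

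Without control replicate 2, the groups did not overlap for 5 members, *Fosb*, *Ier2*, *Ier5*, *Jun* and *Junb*, and 3 of these, *Ier2*, *Jun* and *Junb*, were under 0.05 in unadjusted p. Of all genes, 20.0% did not overlap and 5.78% were under 0.05 in that fit. Leaving out any other library gave 0 members under 0.05 in unadjusted p, so that *Ier2* was above 0.05 in those 5 fits. The groups did not overlap for *Ier2* and *Ier3* without Nr3c1 Foxp3-Cre replicate 1, and for *Fos*, *Ier2* and *Jun* without Nr3c1 Foxp3-Cre replicate 3, a total of 2 and 3, where 16.3% and 17.9% of all genes did not overlap.

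**Figure D4:**
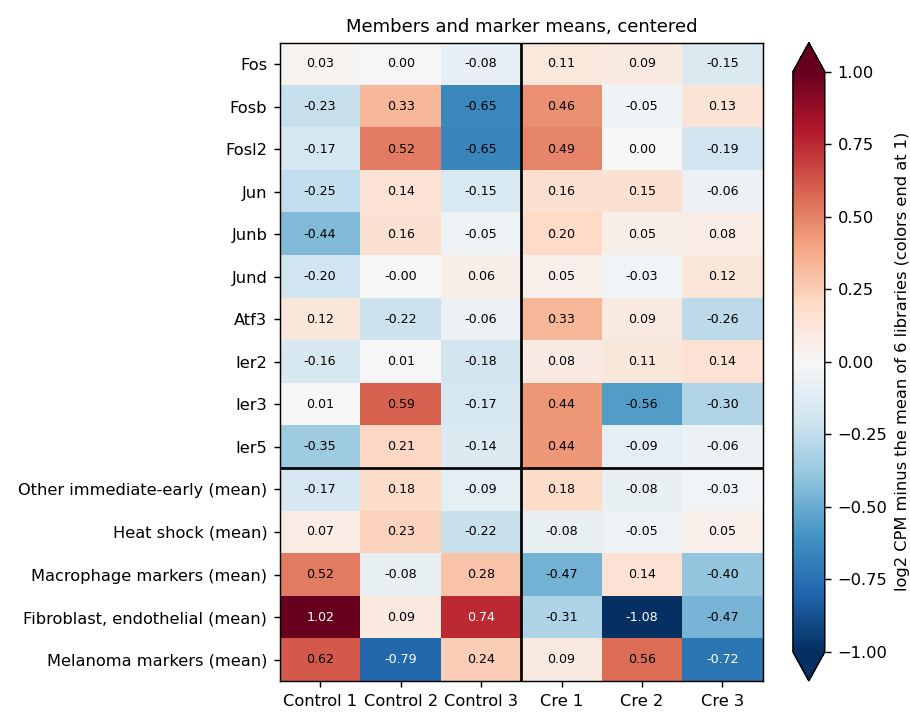
Log2 CPM of the 10 members, and the means of 5 lists of other genes, in each library after subtracting the mean of the 6 libraries; red is above and blue below that mean, and colors end at 1. Nr3c1 Foxp3-Cre replicate 1 is above the mean for all 10 members, control replicate 3 for 1 of them.

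Markers of other cell types varied between the libraries, although the gate in the study's methods left out cells with CD11b, CD11c, B220, NK1.1 or TCR-γδ. Macrophage and monocyte markers were lower in Nr3c1 Foxp3-Cre Tregs for 13 of 13 genes, with a median log2 fold change of -0.41 and 0 at an unadjusted p under 0.05. Their summed level was 905, 544 and 727 CPM in control and 463, 922 and 466 CPM in Nr3c1 Foxp3-Cre libraries, and no marker of that list was missing from the table. Across the 6 libraries the mean of these markers was lowest in Nr3c1 Foxp3-Cre replicate 1, where the members were highest, and its correlation with the members, as a description of 6 libraries, ran from -0.83 for *Junb* to -0.54 for *Fosl2* in 7 of them but was -0.30 for *Ier3*, 0.049 for *Atf3* and 0.057 for *Fos*. With that mean as a covariate, the median over the members was -0.024 in place of 0.18. *Fosb*, *Fosl2*, *Junb*, *Jund* and *Ier5* then had negative log2 fold changes, whereas *Ier2* was at 0.16. *Ier3* was then at -0.83, with an unadjusted p of 0.0150 and an adjusted p of 0.229 by limma, and was the 1 member under an unadjusted p of 0.05, against 13.9% of all genes in that fit.

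Fibroblast and endothelial markers were lower for 7 of 8 measured genes, with a median log2 fold change of -1.55, and summed to 242 to 515 CPM in control and 152 to 232 CPM in Nr3c1 Foxp3-Cre libraries, without overlap. At an unadjusted p under 0.05 by limma, 3 of these markers were lower and 1 was higher, against 3.26% of all genes, and 0 passed the adjusted threshold. The correlation of the members with their mean over the 6 libraries ran from -0.93 for *Ier2* to 0.31 for *Ier3*, and was -0.26 for *Fos* and -0.031 for *Atf3*. Of 6 CD8 T and NK cell markers 1 was in the table, of 6 B cell markers 2, of 8 dendritic cell markers 4 and of 7 granulocyte and mast cell markers 0. The correlation of the members with the melanoma marker mean over the 6 libraries ran from -0.60 for *Jund* to 0.72 for *Atf3*. With that mean as a covariate, the median over the members was 0.17, with 9 log2 fold changes above 0 and 1 below. In sorted bulk samples such as these, fewer cells of a type and less RNA per cell cannot be told apart. The part of these cells in the members' values was not tested beyond the macrophage and melanoma covariates. Heat-shock genes, which digestion of the tumor also induces, were higher for 7 and lower for 8 of 15, with a median log2 fold change of -0.029, and none of their groups was without overlap.

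Of the gene lists examined, that of genes that restrain MAP kinases or AP-1 held the 1 gene that passed the adjusted test. *Tsc22d3*, which encodes GILZ, a GR-induced protein that binds Fos and Jun, was at 7.78, 8.31 and 7.69 log2 CPM in control and at 6.45, 6.28 and 6.35 in Nr3c1 Foxp3-Cre libraries. It fell by 1.56 on the log2 scale (interval -1.92 to -1.21, limma adjusted p = 0.0342), or to 0.338-fold. The adjusted p stayed under 0.05 in 11 of 17 alternative fits. It was 0.221 without a mean-variance trend, 0.137 with the replicate block, 0.0712 without control replicate 3, and 0.0639, 0.140 and 0.154 without Nr3c1 Foxp3-Cre replicates 1, 2 and 3. *Dusp1*, a GR-induced phosphatase of p38, JNK and ERK, was at 11.15, 11.51 and 11.19 log2 CPM in control and at 10.63, 10.81 and 10.74 in Nr3c1 Foxp3-Cre libraries. Its groups did not overlap, and its log2 fold change was -0.56 (standard error 0.13, interval -0.85 to -0.26, limma adjusted p = 0.652). *Bach2*, a bZIP repressor that competes at AP-1 sites, was low, at 1.45, 1.52 and 1.42 log2 CPM in control and 2.31, 1.91 and 2.45 in Nr3c1 Foxp3-Cre libraries, with a log2 fold change of 0.76 (interval 0.082 to 1.43, adjusted p = 1.0). Of 19 measured genes in that list, 1 fell and 0 rose at an adjusted p under 0.05, 5 had differences above 0, and the median was -0.084. At an unadjusted p under 0.05 by limma, 3 fell and 1 rose, against 3.26% of all genes.

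Upstream of AP-1, in a list of MAP kinases, their activators, SRF and its partners, 20 of 32 measured genes were higher and 12 lower, with a median log2 fold change of 0.039. By limma, 0 of these passed either an adjusted or an unadjusted p under 0.05. Among the other bZIP factors of the AP-1, ATF, CREB, MAF and C/EBP families, 9 of 26 were higher and 17 lower (median -0.049), with 0 at an adjusted and 3 at an unadjusted p under 0.05. At an unadjusted p under 0.05 the share of all genes was 3.26%. *Cebpb*, a bZIP factor abundant in myeloid cells, was at 6.74, 7.14 and 7.05 log2 CPM in control and at 6.56, 6.58 and 6.64 in Nr3c1 Foxp3-Cre libraries, a log2 fold change of -0.38 (interval -0.65 to -0.11, adjusted p = 1.0) without overlap. *Bach2* belongs to this list also.

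In the list of other immediate-early genes, 20 of 35 were higher and 15 lower, with a median log2 fold change of 0.030. By limma 0 passed the adjusted threshold of 0.05, and 5 were under 0.05 before adjustment, 3 of them higher. Before adjustment, 3.26% of all genes were under 0.05. *Nr4a1*, the orphan receptor that TCR signals induce in proportion to their strength, was at 8.76, 8.96 and 9.18 log2 CPM in control and at 9.54, 9.40 and 9.30 in Nr3c1 Foxp3-Cre libraries, without overlap. Its log2 fold change was 0.45 (interval 0.16 to 0.73, adjusted p = 1.0). *Ppp1r15a*, the stress-induced regulator of eIF2α dephosphorylation, had a log2 fold change of 0.29 (interval 0.054 to 0.52, adjusted p = 1.0). *Id2*, an inhibitor of E proteins, was at 9.09, 9.64 and 9.22 log2 CPM in control and at 8.78, 8.47 and 8.64 in Nr3c1 Foxp3-Cre libraries, a log2 fold change of -0.69 (interval -1.02 to -0.35, adjusted p = 0.544).

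Genes described as AP-1 targets were more often lower than higher, with 8 of 26 higher, 18 lower and a median log2 fold change of -0.091. By limma 0 passed an adjusted p under 0.05 and 5 an unadjusted p under 0.05, 1 of them higher. The unadjusted share over all genes was 3.26%. *Tnf*, an inflammatory cytokine, was at 3.68, 3.69 and 3.67 log2 CPM in control and at 4.31, 4.09 and 4.83 in Nr3c1 Foxp3-Cre libraries, a log2 fold change of 0.72 (interval 0.24 to 1.21, adjusted p = 1.0) without overlap. *Cxcl2*, a chemokine that macrophages make, was at 3.28, 4.60 and 3.70 log2 CPM in control and at 2.83, 2.44 and 2.36 in Nr3c1 Foxp3-Cre libraries, with a log2 fold change of -1.32 (interval -2.08 to -0.55, adjusted p = 0.853). *Mmp3*, a matrix protease of fibroblasts, was low, at 2.76, 2.49 and 2.92 log2 CPM in control and at 0.61, -0.23 and 2.42 in Nr3c1 Foxp3-Cre libraries. Its log2 fold change was -1.79 (interval -3.12 to -0.46, adjusted p = 1.0), with an SD of 1.36 between Nr3c1 Foxp3-Cre libraries. Between genotypes, these 2 genes moved in the direction of the macrophage and fibroblast markers above. By library, *Cxcl2* was highest in control replicate 2, where the macrophage marker sum was the lowest of the controls (544 CPM). It was at 2.44 in Nr3c1 Foxp3-Cre replicate 2, where that sum was the highest of all (922 CPM). By the mean of the macrophage markers, that library was at 4.54 log2 CPM, below control replicates 1 and 3 (4.91 and 4.68). The part of those cells in the 2 genes was not tested.

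Among the genes whose values over the 6 libraries were most like the mean of the members were *Slc29a3*, a lysosomal nucleoside transporter (Pearson r = 0.987), *Sec16a*, a scaffold of endoplasmic reticulum exit sites (0.985), *Spata2*, an adaptor of the CYLD deubiquitinase (0.982), and *Ankrd11*, a chromatin regulator (0.982). None of these is an immediate-early gene, and over 12153 genes and 6 libraries values this high are a description only. Their log2 fold changes were 0.11, 0.18, 0.093 and 0.12 in that order, each at an adjusted p of 1.0 by limma.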

How the data were processed

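RNA-Seq was made from 6 libraries of sorted tumor Tregs, grouped by the sample titles. According to the methods, the authors used Cutadapt for trimming, STAR with mm10 for alignment and RSEM with GENCODE M21 for quantification, dropped genes under 1 CPM and quantile normalized what was left. The deposited values are log2 CPM after that step. They hold no counts, so limma-voom, the authors' test, was replaced by limma 3.58.1 (R 4.3.3) with a mean-variance trend, fitted to all 12153 genes with 1 term for genotype. Adjusted p-values are Benjamini-Hochberg values over the whole table, with a threshold of 0.05. Quantile normalization makes the distribution of values equal in all libraries, so a shift of all genes cannot be seen. The fit was tested on simulated data with added differences larger than any among the members, so that test does not cover differences of their size. Levels per length used the union of GENCODE M21 exons.

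The members and gene lists were chosen with earlier results of these data known. Genes named are all members, *Nr3c1*, *Tsc22d3*, from each list that holds no cell type markers every gene with an adjusted p under 0.05 and up to 3 without overlap with the smallest unadjusted p under 0.05, and the 5 genes most correlated with the mean of the members. Of these 5, 1 is not reported here. *Prdx2* was added because it overlaps *Junb*. Alternatives are given in the closing section.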

Additional observations from a re-analysis of the deposited data

How the results depend on the processing

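In 17 alternative fits, 0 members had an adjusted p under 0.05 in any. *Jun* and *Ier2* kept their direction in all, and 160 of 170 values for single members kept direction and call. Part of this count was fixed in advance. Fits that changed only the variance estimate, the replicate block or the set of genes gave unchanged log2 fold changes. The lowest adjusted p of a member by limma was 0.229, so no call came near the threshold. With the macrophage marker mean as a covariate, the median over members was -0.024, and the log2 fold change was -0.040 for *Fosb*, -0.18 for *Fosl2*, -0.028 for *Junb*, -0.019 for *Jund* and -0.16 for *Ier5*. With sample quality weights, 10 of the 10 members were above 0 and their median was 0.20. The log2 fold change was then 0.0021 for *Ier3*, 0.76 for *Fosb*, 0.66 for *Fosl2* and 0.014 for *Jund*. Across fits without one replicate it ran from -0.0087 to 0.12 for *Fos*, 0.13 to 0.62 for *Fosb*, -0.071 to 0.52 for *Fosl2*, 0.087 to 0.28 for *Jun*, 0.060 to 0.36 for *Junb*, 0.018 to 0.15 for *Jund*, -0.030 to 0.26 for *Atf3*, 0.19 to 0.28 for *Ier2*, -0.57 to -0.059 for *Ier3* and 0.021 to 0.34 for *Ier5*, and for their median from 0.056 to 0.28.

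The number of members under 0.05 before adjustment was 1 as reported, 0 without a mean-variance trend, 0 with the replicate block, 4 with sample quality weights, and 0 to 3 without one replicate. The share of all genes was 3.26%, 3.86%, 2.26%, 11.3% and, without one replicate, 2.39% to 5.78%. Members without overlap numbered 1 to 5 without one replicate, beside 13.2% to 20.0% of all genes. Over all genes, 7 had an adjusted p under 0.05 as reported, 0 without a trend (469 before adjustment), 0 with the replicate block (275 before adjustment), 19 with sample quality weights, 18 with the melanoma and 24 with the macrophage covariate, and 0 to 8 without one replicate. The cause of these changes was not tested beyond the covariates. Deviations from the group means correlated at -0.33 to -0.025 between same-numbered libraries and at -0.27 to 0.36 between differently numbered ones. These deviations cancel out within each group, so their correlations cannot show whether same-numbered libraries were handled together.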
